A study of Mus musculus with 16 samples.

Results

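The nuclear-encoded genes of oxidative phosphorylation were chosen from the deposited table by name alone, as the symbols that begin with Ndufa, Ndufb, Ndufc, Ndufs or Ndufv, the symbols Sdha, Sdhb, Sdhc and Sdhd, and the symbols that begin with Uqcr, Cox4, Cox5, Cox6, Cox7, Cox8 or Atp5. These are 99 of the 25105 genes listed. Grouped by name, 47 go with complex I (7 core subunits, 32 accessory subunits and 8 assembly factors), 4 to complex II, 8 to complex III, 19 to complex IV and 17 to complex V. Ndufa4 is counted with complex IV, where it is now placed. Of the remaining 4, Ndufa4l2 is a paralog of Ndufa4 and 3 are named as pseudogenes. A further 3, Ndufa11b, Ndufb4c and Ndufs6b, are counted with the accessory subunits by their names, although GENCODE annotates them as processed pseudogenes. The 13 subunits that mitochondrial DNA encodes were not analysed here.

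Complexes I and II pass electrons from NADH and succinate to ubiquinone, complex III passes them to cytochrome c, and complex IV hands them to oxygen, while complexes I, III and IV pump the protons that drive ATP synthase, complex V. In pancreatic β cells the ATP made this way closes potassium channels and so couples glucose to insulin secretion. Several complex IV subunits exist as isoforms with tissue-restricted expression, and a muscle isoform often has a ubiquitous partner.

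RNA was sequenced from dispersed islet cells of adult Grp78 fl/fl mice, in which both copies of the gene for the ER chaperone GRP78 carry loxP sites in every group. The cells of 4 preparations, labelled F1, M1, M2 and F2, were transduced with adenovirus carrying LacZ (Ad-LacZ) or Cre recombinase (Ad-Cre) and kept for 72 hours in 15 mM glucose with vehicle (DMSO) or with the pan-JNK inhibitor JNK-IN-8 (groups Ad-LacZ + JNKi and Ad-Cre + JNKi), so that each of the 4 groups has 4 libraries. The virus was added to the dispersed cells as a whole, which cell types it entered was not measured here, and the labels give 2 animal numbers per preparation. The paper counts 2 female and 2 male mice, and the letters F and M appear to mark sex. The design asks what Ad-Cre changed, and what JNK inhibition changed with and without it. In these bulk libraries fewer cells of a type and less RNA per cell cannot be told apart.

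Depth, read from the steps between low values, was 7.72e+06 to 2.55e+07 reads per library. The shallowest library, Ad-Cre + JNKi of preparation F2, is also the only library whose column name has another prefix and another suffix. The labels do not say what these stand for. Hspa5, which encodes GRP78, was at 395 to 483 RPKM (reads scaled to gene length and library size) in Ad-LacZ and at 1107 to 1599 RPKM in Ad-Cre, a log2 fold change of 1.499 (SE 0.18, limma's adjusted p = 0.00223) opposite in sign to a knockdown of the whole transcript. A value per gene does not separate the exons between the loxP sites from the rest, so it does not measure recombination, and directions below are those of the libraries labelled Ad-Cre. Cell type markers moved as well. All 9 β cell markers had log2 fold changes below 0 (median -0.82), 2 of them called lower in Ad-Cre (6 in the fit with a block for the preparation), and their summed level was 51906 to 84724 RPKM in Ad-LacZ and 33474 to 84383 in Ad-Cre. All 8 macrophage markers were above 0 (median 0.79, 3 called), with sums of 81.1 to 91.4 RPKM in Ad-LacZ and 84.7 to 236 RPKM in Ad-Cre. All 4 stellate or fibroblast markers tested were above 0 (median 1.04, 0 called by limma with or without the block), with sums of 23.5 to 105 RPKM in Ad-LacZ and 21.8 to 676 RPKM in Ad-Cre, as were all 5 endothelial markers (median 0.12, 0 called). Over the 5 markers of α cells the median was -0.01, and no marker of any list was at 0 throughout. The part of cell composition in the results below was not tested.

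Shown first are the promoters of 4 called members that hold a core of a transcription factor site. Each runs from 250 bases before to 50 after the RefSeq start of the gene (GRCm38.p6), written 5′ to 3′ on the strand of the gene. Capitals mark an exact match on either strand to GCATGCGC, a core of the NRF1 site, in Cox6a1 (chr5:115348909-115349208, minus strand), Sdhb (chr4:140961021-140961320, plus strand) and Uqcrc1 (chr9:108936398-108936697, plus strand). In Cox6a1 and Uqcrc1 the capitals cover a pair of overlapping matches. In Ndufs4 (chr13:114388045-114388344, minus strand) they mark ATGGCGGC, a core of the YY1 site. NRF1 and YY1 are transcription factors known to bind promoters of respiratory genes. The first 3 genes were called higher with the block in both virus comparisons below, and Ndufs4 was called lower in Ad-Cre. Atp5b, Atp5g1, Atp5j2 and Ndufb7 were also called higher with the block in both, and their promoters hold none of the cores searched for.
Cox6a1: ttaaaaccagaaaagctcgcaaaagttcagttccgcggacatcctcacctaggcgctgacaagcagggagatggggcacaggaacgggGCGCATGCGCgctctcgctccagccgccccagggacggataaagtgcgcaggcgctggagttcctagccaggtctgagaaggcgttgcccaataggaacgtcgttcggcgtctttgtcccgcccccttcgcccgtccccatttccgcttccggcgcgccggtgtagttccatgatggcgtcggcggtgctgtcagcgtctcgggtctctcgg
Sdhb: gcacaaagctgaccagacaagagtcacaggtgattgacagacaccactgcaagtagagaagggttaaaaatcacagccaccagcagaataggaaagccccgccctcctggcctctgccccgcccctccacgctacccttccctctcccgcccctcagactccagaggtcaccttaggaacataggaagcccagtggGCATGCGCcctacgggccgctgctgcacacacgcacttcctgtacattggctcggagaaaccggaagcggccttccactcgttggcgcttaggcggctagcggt
Uqcrc1: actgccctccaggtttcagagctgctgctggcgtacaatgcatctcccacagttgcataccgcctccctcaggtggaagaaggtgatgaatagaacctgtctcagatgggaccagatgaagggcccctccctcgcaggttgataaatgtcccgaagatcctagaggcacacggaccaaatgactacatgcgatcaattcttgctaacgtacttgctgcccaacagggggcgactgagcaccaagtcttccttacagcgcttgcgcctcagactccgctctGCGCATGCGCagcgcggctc
Ndufs4: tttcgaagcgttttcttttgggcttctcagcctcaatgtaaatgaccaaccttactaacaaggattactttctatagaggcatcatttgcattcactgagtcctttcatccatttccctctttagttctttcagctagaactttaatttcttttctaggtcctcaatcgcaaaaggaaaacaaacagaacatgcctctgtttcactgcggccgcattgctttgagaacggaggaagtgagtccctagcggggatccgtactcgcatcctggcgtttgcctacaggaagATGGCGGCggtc

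Of the 99 members, 76 had a promoter in the RefSeq table. The NRF1 core was in 12 of them (15.8%), against 2.8% of all 27025 promoters of this length, and the YY1 core in 7 (9.21%) against 2.38%. CAAGGTCA, a core of the site of estrogen-related receptors, was in 4 (5.26%) against 1.53%, CCGGAAGT, a core of the GABPA site, in 5 (6.58%) against 4%, and TGATGNAA, a core of the ATF4 site, in 0 against 4.06%. The members' promoters also held more G and C, a median of 58.5% against 52.7%. Among the 30 members with a promoter that were called higher with the preparation as a block in either virus comparison, 5 held the NRF1 core (16.7%), and among the other 46 members 7 did (15.2%). The GABPA core was in 4 (13.3%) against 1 (2.17%), the YY1 core in 2 (6.67%) against 5 (10.9%) and the estrogen-related receptor core in 1 (3.33%) against 3 (6.52%). None of these shares was tested.

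The members are short, abundant transcripts. In Ad-LacZ the 91 members that passed the filter for the first comparison (above 1 RPKM in at least 4 of its 8 libraries) had a median level of 30.6 RPKM, against 7.39 RPKM over all genes tested, and 76 of them (83.5%) lay above the overall median. Their exons sum to a median of 1587 bases, against 4308 for all genes tested. Outside the core subunits of complex I, the member with the highest level in each class was Ndufa1, a small accessory subunit of complex I, with 232 ± 36.1 RPKM (SD, n = 4), the assembly factor Ndufaf1 with 7.92 ± 0.185 RPKM, Sdha with 65.1 ± 3.77 RPKM, Uqcr10 with 76.5 ± 9.13 RPKM, Cox8a with 205 ± 36.0 RPKM and Atp5a1, the α subunit of the ATP synthase head, with 190 ± 26.2 RPKM. Assembly factors had the lowest median of the classes in complexes I to V, 5.88 RPKM, and ran from 2.41 to 7.92 RPKM. The members together held 1.38 ± 0.0529% of all RPKM in Ad-LacZ (SD, n = 4), 1.49 ± 0.128% in Ad-Cre, 1.48 ± 0.0718% in Ad-LacZ + JNKi and 1.69 ± 0.226% in Ad-Cre + JNKi, and the last group ran from 1.42% in preparation M2 to 1.92% in F1.

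**Figure D1:**
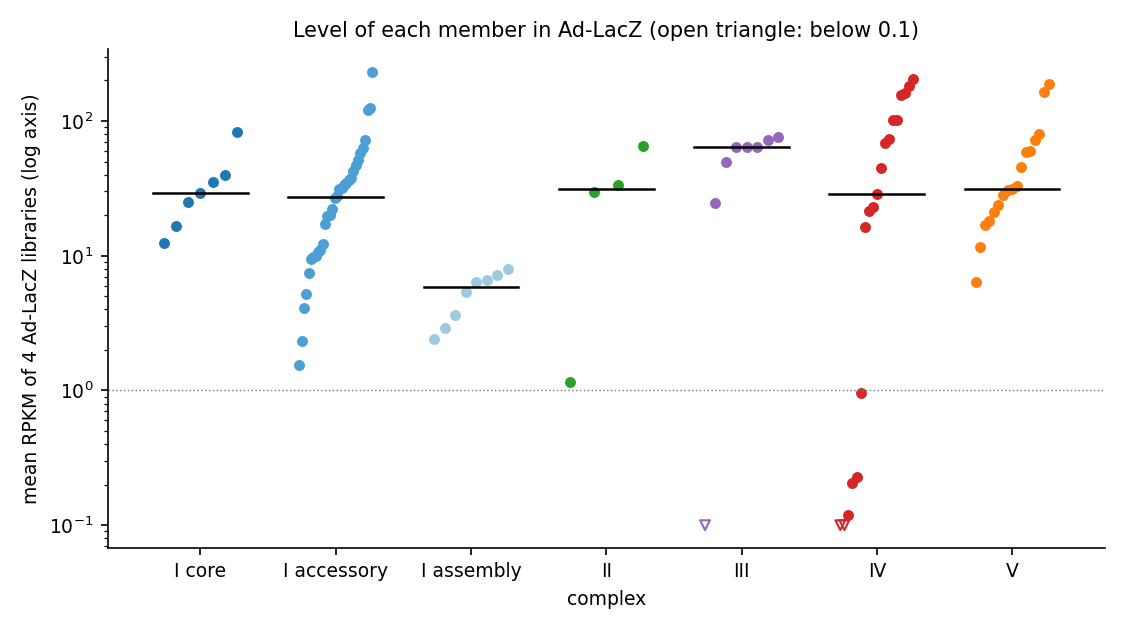
Mean RPKM of each member of complexes I to V over the 4 Ad-LacZ libraries (log axis) by complex, with the class median as a black line, 1 RPKM as a dotted line and members below 0.1 RPKM as open triangles. Assembly factors of complex I lie lowest (class median 5.88 RPKM), the highest member is Ndufa1 at 232 RPKM, and the plotted members under 1 RPKM are Uqcr11 and 6 complex IV isoforms.

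In Ad-Cre against Ad-LacZ, most members had small values above 0, and this rested in part on preparation F1. The median log2 fold change over the 91 members tested was 0.15, against -0.02 over all 11590 genes tested, and 64 of the 91 were above 0, against 47.6% of all genes. Without F1 the median was 0.04, with 51 of 91 above 0. The main test, limma with Benjamini-Hochberg adjustment over all genes, called 0 members higher and 2 lower, where 6.72% of all genes were called higher and 9.84% lower. Other scalings called some members higher, with 6 higher and 4 lower from RPKM as deposited, 2 and 4 with quantile normalization and 3 and 4 with the length trend removed. In these settings 19.1%, 18.1% and 16.5% of all genes were called in either direction. With the preparation as a block, a fit that pairs the libraries of the same animals, 18 members were called higher and 4 lower, where the background was 15.1% and 19.2% (34.3% in either direction). In all 4 preparations 28 members were higher (23.5% of all genes) and 8 lower (28.8%). The share of members called higher with the block, 18 of 91, is thus not far above its background.

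The complexes differed in their medians, given here as a description. Complex III had a median log2 fold change of 0.34 (7 tested), complex V 0.26 (17), complex IV 0.19 (14), the accessory subunits of complex I 0.13 (32), complex II 0.08 (4), the assembly factors 0.06 (8) and the core subunits of complex I 0.04 (7). The preparations differed more than the complexes. Over all members the median difference of preparations F1, M1, M2 and F2 was 0.43, 0.14, 0.06 and -0.09, while the same median over all genes stayed between -0.06 and 0.01. Members are short, and removing the trend of each library with gene length lowered the members' median to 0.08, where all genes then stood at 0.02. With the block it left 11 members higher and 5 lower, where 31.3% of all genes were called in either direction.

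Cox6a2, the muscle isoform of a small complex IV subunit (ENSMUSG00000030785, GRCm38 chr7:128205435-128206387, minus strand), showed the lowest log2 fold change of any member. In the order F1, M1, M2, F2 it was at 103, 92.8, 39.8 and 58.7 RPKM in Ad-LacZ and at 35.7, 29.4, 15.7 and 23.4 RPKM in Ad-Cre. Each preparation was lower with Ad-Cre, and the 2 groups of deposited values did not overlap, although after scaling they did. Its log2 fold change was -1.44 (SE 0.40), called by limma at an adjusted p of 0.039 and by the blocked fit at 0.00024. The call was lost without F1 (adjusted p = 0.078), M1 (0.126) or F2 (0.164). About 10.3% of its exon bases are overlapped by Itgad, and whether reads were counted by strand is not stated.

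Its ubiquitous partner Cox6a1 had the opposite sign. Cox6a1 was at 202, 182, 191 and 158 RPKM in Ad-LacZ and at 307, 228, 225 and 227 RPKM in Ad-Cre, higher in each of the 4 preparations. The log2 fold change of 0.40 (SE 0.19) had an adjusted p of 0.172 in limma and of 0.030 with the block. The Cox6a2 share of the summed RPKM of both genes was 28.0 ± 7.84% in Ad-LacZ (SD, n = 4) and 9.42 ± 2.12% in Ad-Cre, and 23.3 ± 7.64% in Ad-LacZ + JNKi and 4.30 ± 0.567% in Ad-Cre + JNKi. In each preparation the order of the 4 groups was the same, and the lowest share in any Ad-LacZ library, 17.3%, was above the highest in Ad-Cre, 11.4%.

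**Figure D2:**
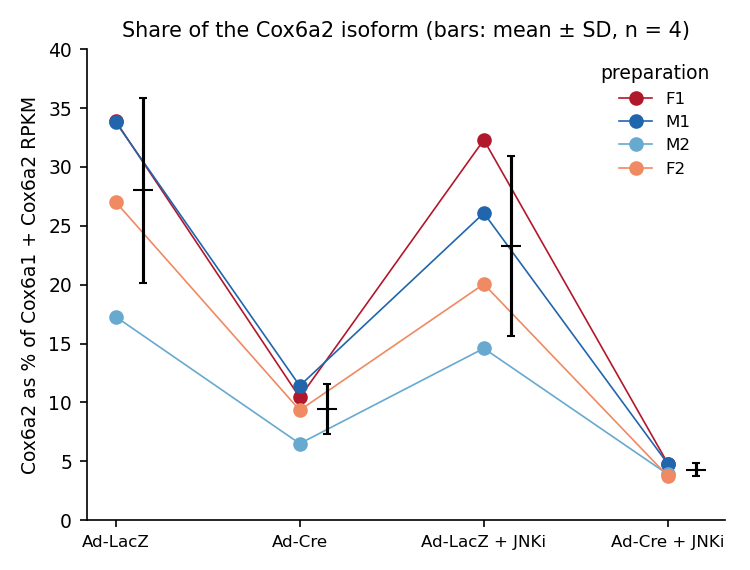
Cox6a2 as a percentage of the summed Cox6a1 and Cox6a2 RPKM in each library, with 1 line per preparation and the mean ± SD of 4 libraries as a black bar. Each line is lower in Ad-Cre than in Ad-LacZ and lower in Ad-Cre + JNKi than in Ad-LacZ + JNKi. In Ad-Cre + JNKi the 4 libraries lie between 3.74% and 4.80%.

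The other isoforms were low. Cox7a1, a muscle isoform, had 0.959 ± 0.406 RPKM in Ad-LacZ and 1.14 ± 0.299 in Ad-Cre (SD, n = 4), against 16.2 ± 3.42 and 16.5 ± 5.01 for Cox7a2. Cox4i2, an isoform linked to hypoxia, Cox6b2, an isoform known from testis, and Ndufa4l2 stayed at means of 0.206 to 0.592 RPKM in all groups and were not tested. Cox7b2 was above 0 in 4 of 16 libraries, Cox8b in 1 and Cox8c in 0. Abundant by contrast were Cox6b1 at 155 ± 11.6, Cox7a2l at 161 ± 21.4, Cox7b at 68.5 ± 6.63 and Cox8a at 205 ± 36.0 RPKM in Ad-LacZ. All but Cox7a2l are partners of a low isoform. These 4 had log2 fold changes of 0.28 (SE 0.21), 0.19 (SE 0.21), 0.29 (SE 0.16) and 0.37 (SE 0.26) in Ad-Cre, and none passed limma's adjusted p with or without the block. Ndufa4 was called lower only with the block. It was at 111, 86.5, 103 and 109 RPKM in Ad-LacZ and at 85.6, 78.6, 64.8 and 68.3 RPKM in Ad-Cre, lower in each preparation, with a log2 fold change of -0.48 (SE 0.18) and adjusted p values of 0.104 in limma and 0.028 in its blocked fit.

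Cox4i1, the ubiquitous isoform of the largest nuclear-encoded subunit of complex IV (ENSMUSG00000031818, GRCm38 chr8:120668222-120674207, plus strand), was at 106, 95.3, 105 and 103 RPKM in Ad-LacZ and at 179, 135, 137 and 153 RPKM in Ad-Cre. The groups did not overlap. Its log2 fold change of 0.53 (SE 0.16) had an adjusted p of 0.051 in limma, just above the threshold of 0.05, and of 0.010 with the block. Cox5a, another ubiquitous subunit, had 0.30 (SE 0.14, adjusted p = 0.168, and 0.030 with the block).

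In complex V the genes for the α and β subunits of the head were higher with Ad-Cre in each preparation. Atp5b, the catalytic β subunit (ENSMUSG00000025393, GRCm38 chr10:128083273-128090391, plus strand), was at 177, 173, 171 and 139 RPKM in Ad-LacZ and at 268, 232, 226 and 224 RPKM in Ad-Cre. These groups, too, did not overlap, and the log2 fold change of 0.51 (SE 0.17) had an adjusted p of 0.070 in limma and of 0.010 with the block. Atp5a1 had 0.47 (SE 0.23, adjusted p = 0.185, and 0.014 with the block), and Atp5g1, one of the genes for the proton-carrying c subunit, had 0.51 (SE 0.17, adjusted p = 0.073, and 0.016 with the block). The lowest value of the complex was that of Atp5pb, the b subunit of the stator, at -0.19 (SE 0.13, adjusted p = 0.366).

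In complex III, Uqcrc1, a core protein, was at 26.3, 25.7, 26.9 and 20.1 RPKM in Ad-LacZ and 38.2, 32.9, 31.9 and 31.8 RPKM in Ad-Cre. These groups did not overlap, and the log2 fold change was 0.42 (SE 0.16), with adjusted p values of 0.095 in limma and 0.015 in its blocked fit. Cox4i1, Atp5b and Uqcrc1 are the 3 members higher without overlap between the scaled groups, where 10.2% of all genes were, and Ndufs4 is the only one lower, where 14.7% were. Uqcr10, a small subunit, had 0.45 (SE 0.23, adjusted p = 0.195, and 0.025 with the block). Uqcrb, which contacts ubiquinone, had -0.40 (SE 0.22, adjusted p = 0.239), and 25.5% of its 50-base stretches recur in other genes. Uqcr11 was at 0.017 RPKM on average in Ad-LacZ and was not tested, and such a value does not show that the gene was not expressed.

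In complex I the accessory subunit Ndufs4 (ENSMUSG00000021764, GRCm38 chr13:114287795-114388258, minus strand), which stabilizes the NADH-binding arm, was called lower. It was at 21.5, 19.2, 19.4 and 20.7 RPKM in Ad-LacZ and at 15.7, 14.2, 15.7 and 15.3 RPKM in Ad-Cre. The ranges of the groups were narrow and did not overlap, and the log2 fold change was -0.40 (SE 0.12), called by limma at an adjusted p of 0.045 and by the blocked fit at 0.011. Without any one preparation the adjusted p was 0.068 to 0.217. Ndufb3, an accessory subunit of the membrane arm, had -0.46 (SE 0.18, adjusted p = 0.112, and 0.010 with the block) and was lower in 4 of 4 preparations. Of the core subunits, Ndufv1, which holds the flavin, had 0.53 (SE 0.24, adjusted p = 0.164, and 0.010 with the block) and Ndufs3 had 0.45 (SE 0.18, adjusted p = 0.126, and 0.016 with the block). Subunits of the same electron-input arm, Ndufv1 and Ndufs4, thus had values of opposite sign.

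The other members named by rule in complex I did not pass the unblocked test. Ndufb11, with the highest value of the accessory subunits, had 0.41 (SE 0.26, adjusted p = 0.310, and 0.023 with the block). The assembly factors ran from -0.19 (SE 0.09, Ndufaf1) to 0.22 (SE 0.16, Ndufaf6), and 0 of 8 were called by limma with or without the block, with 0 at an unadjusted p under 0.05. In complex II, Sdhb, the iron-sulfur subunit, had 0.34 (SE 0.18, adjusted p = 0.216, and 0.034 with the block). The flavin subunit Sdha had -0.06 (SE 0.17), and the membrane anchors Sdhc and Sdhd had 0.15 (SE 0.23) and 0.0012 (SE 0.22), each inside its error.

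**Figure D3:**
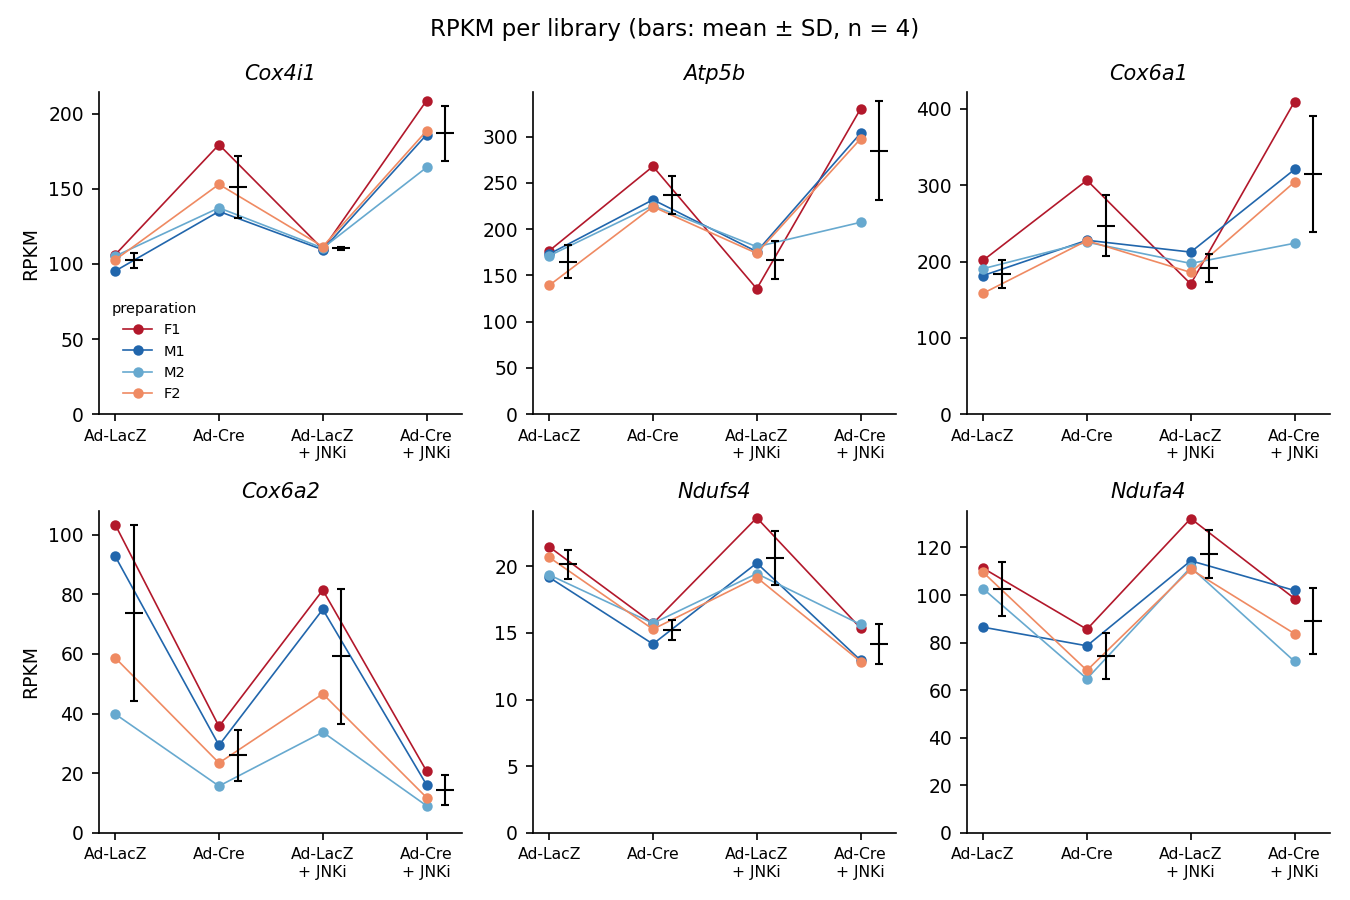
RPKM of 6 members in each of the 16 libraries, with 1 line per preparation and the mean ± SD of 4 libraries as a black bar, all axes from 0. Cox4i1, Atp5b and Cox6a1 are higher in each Ad-Cre library than in the Ad-LacZ library of its preparation, and Cox6a2, Ndufs4 and Ndufa4 are lower.

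The same virus comparison under JNK inhibitor, made from 8 other libraries of the same preparations, gave larger values. The median over 92 members tested was 0.32, against -0.03 over 11598 genes, and 77 of 92 were above 0, against 46.5% of all genes. Limma called 9 members higher and 1 lower, where 10.1% of all genes were called higher and 10.5% lower (20.6% together). With the block it called 27 higher and 1 lower, where 12.7% and 12.1% were (24.8% together). In all 4 preparations 36 members were higher, against 20.9% of all genes, and 7 lower, against 24.3%. The groups did not overlap for 10 higher members (11.6% of all genes) and 1 lower (14.5%). Complex III had a median of 0.71, complex V 0.54, complex IV 0.45, the accessory and core subunits of complex I 0.41 and 0.22, complex II 0.18 and the assembly factors 0.08. The highest value was that of Atp5g1 in complex V.

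The 9 members called higher, of 92 tested, are near the share of all genes so called, 10.1%, and are listed as a description. Of these, 4 belong to complex V, with log2 fold changes of 1.03 for Atp5g1 (SE 0.26), 0.89 for Atp5b (SE 0.19), 0.89 for Atp5j2 (SE 0.23), the f subunit of the membrane part, and 0.87 for Atp5a1 (SE 0.21). In complex IV, Cox4i1 (0.88, SE 0.16), Cox6a1 (0.82, SE 0.22) and Cox7b (0.71, SE 0.18) rose, as did Uqcrc1 in complex III (0.71, SE 0.22) and Ndufb10 in complex I (0.84, SE 0.24). Limma's adjusted p of these 9 ran from 0.0064 for Cox4i1 to 0.0465 for Uqcrc1. In the order F1, M1, M2, F2, Cox4i1 was at 110, 109, 111 and 111 RPKM in Ad-LacZ + JNKi and at 209, 186, 164 and 188 RPKM in Ad-Cre + JNKi, without overlap. Atp5b was at 136, 176, 181 and 174 RPKM in Ad-LacZ + JNKi and at 330, 304, 207 and 298 RPKM in Ad-Cre + JNKi, with M2 the lowest of the latter. Cox6a2 fell again, from 81.4, 74.9, 33.8 and 46.6 RPKM to 20.7, 16.1, 9.06 and 11.8 RPKM (log2 fold change -1.82, SE 0.39, limma's adjusted p = 0.012).

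Leaving out preparations changed the number called under inhibitor, to 7 without F1, 0 without M1, 26 without M2 and 0 without F2. The Ad-Cre + JNKi library of M2 had the highest level of the mitochondrial ribosomal RNA mt-Rnr1, 1460 RPKM against 356 to 822 in the other 3 of its group, and without that single library 39 members were called, 38 of them higher. Without the shallow F2 library 8 were. The shares of all genes called in these settings are not given here, so the counts describe only how the calls depend on the libraries. Ndufs4 had -0.38 (SE 0.17, adjusted p = 0.140) here and Ndufa4 -0.27 (SE 0.20, adjusted p = 0.379), both lower in 4 of 4 preparations. Of the members called higher with the block, 18 without and 27 with inhibitor, 9 were called in both, which is 50% of the first list and 33.3% of the second: Atp5a1, Atp5b, Atp5g1, Atp5j2, Cox4i1, Cox6a1, Ndufb7, Sdhb and Uqcrc1. Of those called lower, 4 and 1, Cox6a2 was in both. The same overlap over all genes is not given here, so these shares are a description. β cell markers had a median of -0.85 under inhibitor (4 of 9 called lower), α cell markers 0.55 (5 of 5 above 0), δ cell markers 0.85 (3 of 3) and stellate or fibroblast markers -1.23 (0 of 5).

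**Figure D4:**
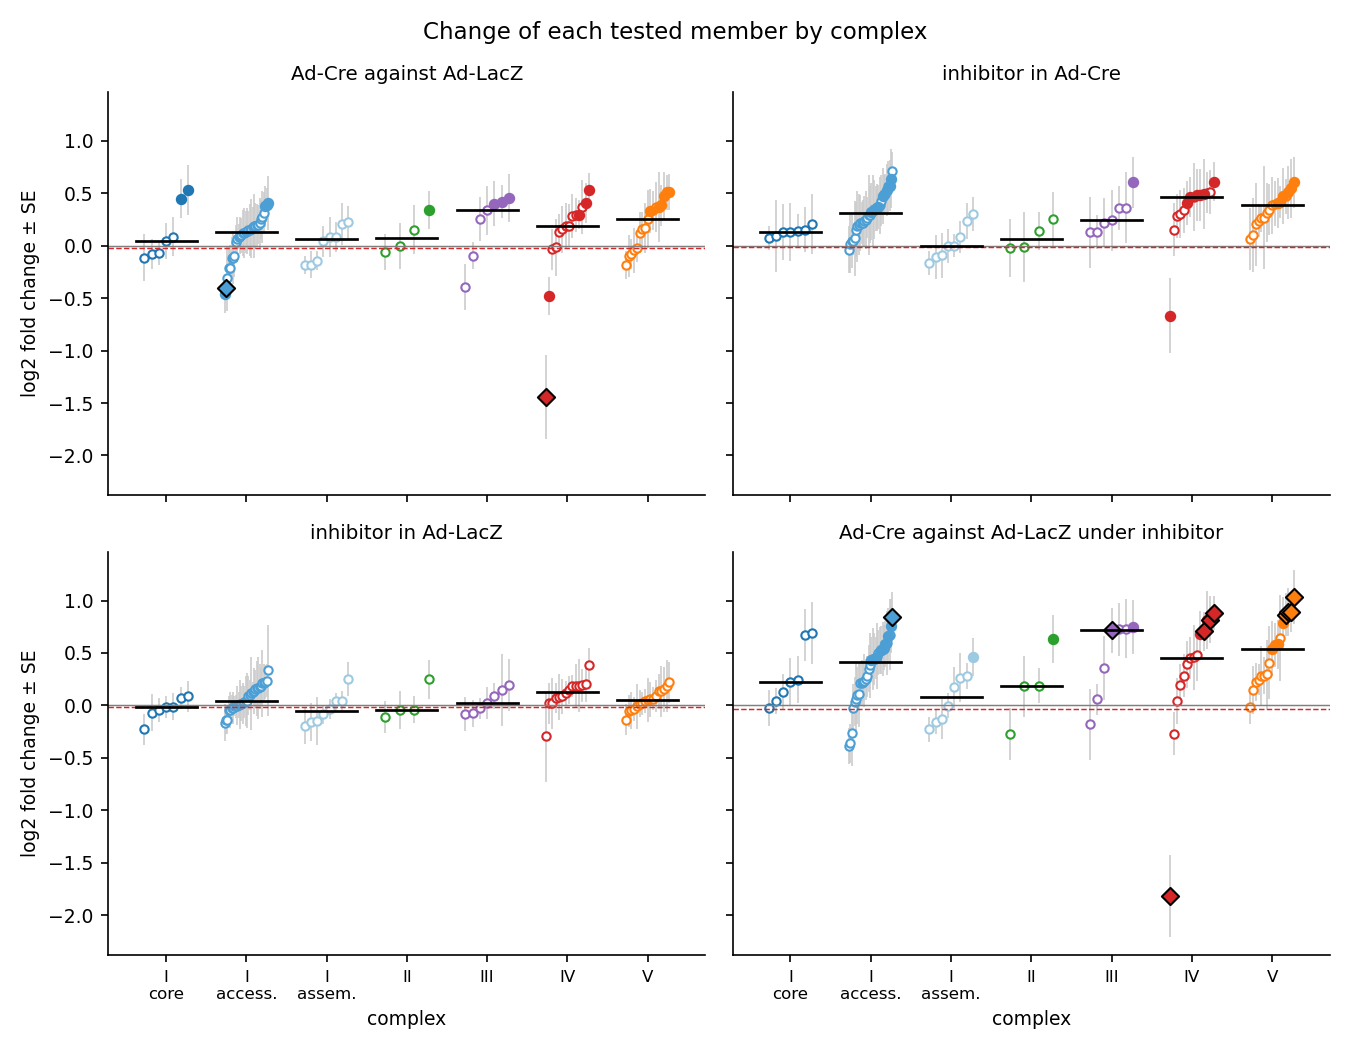
Log2 fold change ± SE of each tested member by complex in the 4 comparisons, with the class median as a black line and the median of all genes as a red dashed line. Diamonds passed limma's adjusted p without a block, filled circles passed it only with the preparation as a block, and open circles passed neither. The diamonds number 2, 0, 0 and 10, and Cox6a2 is the lowest point in both virus panels.

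With JNK inhibitor in Ad-Cre cells the median of the members was above 0 in each preparation. The median over 91 members was 0.28, against -0.01 over 11503 genes, and 82 of 91 were above 0, against 47.8% of all genes. The medians of the preparations were 0.26, 0.43, 0.22 and 0.31 for F1, M1, M2 and F2. Limma called 0 members and 0% of all genes, and at an unadjusted p under 0.05 it had 15 members higher and 0 lower, where 5.54% and 2.64% of all genes were. With the block 19 were called higher and 1 lower, where the background was 4.29% and 2.13% (6.42% together). The groups did not overlap for 3 higher members (3.43% of all genes) and 0 lower (2.47%). In all 4 preparations 49 members were higher (17.9% of all genes) and 1 lower (18%). Removing the length trend left 6 higher and 1 lower with the block and a median of 0.17. Of all genes, 5.05% were then called with the block.

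Complexes IV and V led this comparison, with medians of 0.46 and 0.39, followed by the accessory subunits of complex I at 0.31, complex III at 0.24, the core subunits at 0.13, complex II at 0.06 and the assembly factors at -0.0021. Of the 19 members higher with the block, 6 belong to complex V, 6 to complex IV, 6 to complex I and 1 to complex III. Cox7b, a small subunit of complex IV, was at 99.9, 78.9, 78.4 and 83.5 RPKM in Ad-Cre and at 134, 119, 106 and 111 RPKM in Ad-Cre + JNKi. The groups did not overlap, and the log2 fold change was 0.61 (SE 0.19), with adjusted p values of 0.390 in limma and 0.019 in its blocked fit. Ndufa12, an accessory subunit, had 0.71 (SE 0.18, adjusted p = 0.318, and 0.076 with the block), and Atp5l, the g subunit of complex V, had 0.47 (SE 0.17, adjusted p = 0.484, and 0.056 with the block). Cox6a2 went from 35.7, 29.4, 15.7 and 23.4 RPKM to 20.7, 16.1, 9.06 and 11.8 RPKM, lower in each preparation, with -0.67 (SE 0.36, adjusted p = 0.703, and 0.019 with the block). This comparison shares its Ad-Cre libraries with the first. Other genes differed alongside the members. The mitochondrial ribosomal RNAs mt-Rnr1 and mt-Rnr2 had log2 fold changes of 1.04 (SE 0.36) and 1.08 (SE 0.39), which passed neither fit. All 5 α cell markers (median 0.47) and all 3 δ cell markers (median 0.85) were above 0, with 1 of each list called higher only with the block, and δ cell sums were 1134 to 2551 RPKM in Ad-Cre and 2466 to 6831 RPKM in Ad-Cre + JNKi. Their part in the members' values was not tested.

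In Ad-LacZ cells the inhibitor left the members near 0. The median over 92 members was 0.04, against -0.02 over 11657 genes, and 60 of 92 were above 0, against 45.4%. Limma called 0 members with or without the block, where 0.189% of all genes were called without it (0.146% higher and 0.0429% lower) and 0.335% with it (0.249% and 0.0858%). At an unadjusted p under 0.05, 1 member, Cox7a1, was higher and 0 were lower, where 3.08% and 2.89% of all genes were. In all 4 preparations 7 members were higher (9.81% of all genes) and 3 lower (12.5%), and the groups overlapped for each member, where 1.97% of all genes were higher and 2.47% lower without overlap. Cox7a1 was at 1.00, 0.476, 0.894 and 1.46 RPKM in Ad-LacZ and at 1.59, 1.24, 1.38 and 1.91 RPKM in Ad-LacZ + JNKi, with a log2 fold change of 0.38 (SE 0.16, limma's adjusted p = 0.808). The next smallest p belonged to Cox5a, at 0.19 (SE 0.11), and to the assembly factor Ndufaf2, at 0.26 (SE 0.16), whose exons are overlapped over 65.6% by another gene. All 8 macrophage markers were above 0 in this comparison (median 0.84, 3 called higher), as were all 4 stellate or fibroblast markers tested (median 1.82, 1 called higher only with the block).

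Whether the inhibitor acted differently in Ad-Cre and Ad-LacZ cells was tested by the interaction over all 16 libraries. The median was 0.24 over 92 members, against 0.01 over 12274 genes, and 83 of 92 were above 0, against 51.2%. Limma called 0% of all genes and 0 members with or without the block, and 0 members reached an unadjusted p under 0.05, where 1.93% of all genes did with a higher value and 1.4% with a lower one. In all 4 preparations 23 members were higher (11.6% of all genes) and 2 lower (10.2%). The smallest p values belonged to Cox7b (0.42, SE 0.24), Ndufb10 (0.53, SE 0.32) and Cox4i1 (0.35, SE 0.22). No member passed the test of the difference, which does not show that the responses are alike.

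**Figure D5:**
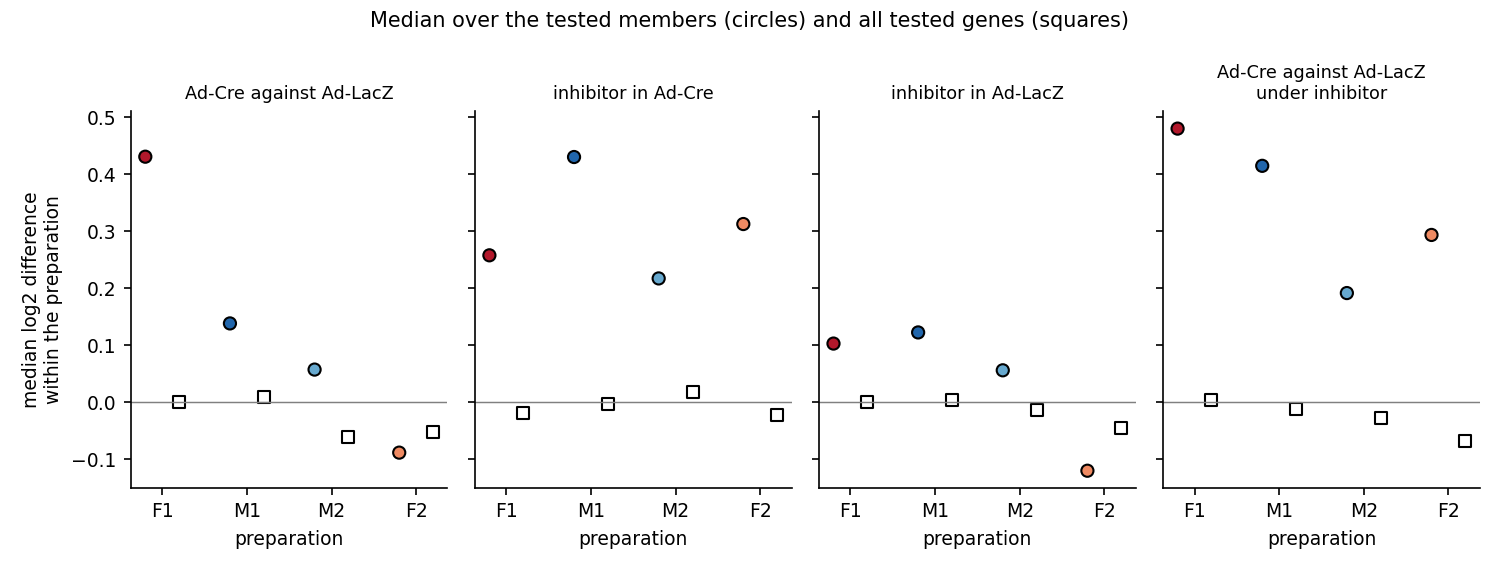
Median log2 difference within each preparation over the members tested (coloured circles) and over all genes tested (white squares) in the 4 comparisons. The circles run from 0.43 in F1 to -0.09 in F2 for Ad-Cre against Ad-LacZ, and lie at 0.22 to 0.43 where inhibitor was added to Ad-Cre cells. The squares stay between -0.07 and 0.02.

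The scaling sets the zero line of these small values. With RPKM as deposited, the median of all genes moved to -0.14 for the inhibitor in Ad-Cre and to -0.14 for Ad-Cre against Ad-LacZ under inhibitor, and the members' medians to 0.13 and 0.20, so that relative to all genes the first stayed at 0.27. Genes for the cytosolic ribosome, which are also short and abundant, had medians of 0.58 (79 tested) in Ad-Cre against Ad-LacZ, 0.90 under inhibitor, 0.41 for the inhibitor in Ad-Cre and 0.10 in Ad-LacZ. Genes for the mitochondrial ribosome (76 tested) had 0.11, 0.19, 0.12 and -0.0020. The members' medians of 0.15, 0.32, 0.28 and 0.04 lay between those of these lists in each comparison, and the differences between lists were not tested.

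Some members share sequence with other genes. Of the 99, 29 had over 10% of their 50-base stretches in another gene or over 10% of their exon bases overlapped by one, such as Ndufb4c, whose stretches all recur in Ndufb4, and the pseudogene Ndufs5-ps, which shares 72.6% with Ndufs5 and was listed at 125 ± 36.0 RPKM in Ad-LacZ (SD, n = 4). The way reads of such genes were divided is not stated. Ndufs5-ps and Uqcrh-ps1 had log2 fold changes of -0.11 (SE 0.24) and 0.55 (SE 0.36) in Ad-Cre, and neither passed the test. Without the 29, the median over 62 members was 0.14 in Ad-Cre against Ad-LacZ, with 13 higher and 3 lower with the block, and 8 of 63 were called higher under inhibitor. Of all genes, 15.1% were higher and 19.2% lower with the block, and 10.1% were called higher under inhibitor.

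Of genes that work with the members, limma called 3 of 40 assembly factors, 2 of 10 regulators and 1 of 13 enzymes of the citric acid cycle, where 16.6% of all genes were called in Ad-Cre against Ad-LacZ. Of 3 tested subunits that the name pattern leaves out, Cyc1 (0.52, SE 0.18) and Cycs (0.41, SE 0.14), which encode cytochromes c1 and c, were called higher in Ad-Cre only with the block. Of 40 tested assembly factors outside the pattern, Cox18 rose (0.65, SE 0.11), and Lrpprc, which stabilizes mitochondrial mRNA, and Atpaf1, a chaperone of the complex V head, fell by 0.63 and 0.37 on the log2 scale. Of 10 tested regulators, Pprc1, a coactivator of the PGC-1 family, rose (0.47, SE 0.12) and Esrrg, an estrogen-related receptor, fell by 0.79. Of 13 enzymes of the citric acid cycle only Cs, citrate synthase, was called (0.43, SE 0.11), and the median of the 13 was -0.01. Limma's adjusted p of these 6 genes was at most 0.0323. Under inhibitor limma called 4 assembly factors higher and 1 lower, 1 regulator higher and 1 lower, and 2 citric acid cycle enzymes higher, where 20.6% of all genes were called. Cox18, Lrpprc, Pprc1 and Esrrg were called in the same directions, and Cs and Atpaf1 were not called. Cycs (0.79, SE 0.18), Mdh2 (1.00, SE 0.24), Idh3b (0.49, SE 0.12), Surf1 (0.61, SE 0.16), Higd1a (0.65, SE 0.15) and Higd2a (0.72, SE 0.16) were called higher as well.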

How the data were processed

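Poly(A) RNA of 16 libraries (4 preparations in each of 4 groups) was sequenced as paired ends. The authors aligned the reads to the mouse genome, citing STAR, and deposited RPKM values. The submitters' processing notes name GRCm38, and the aligner version, annotation, gene lengths and the step from counts to RPKM are not given in the sources used here. The table also has 3 columns matching no label, which were left out. The deposited columns of RPKM carry no interval, and depth (7.72e+06 to 2.55e+07 reads per library) was read from their low steps.

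Groups followed the labels. TMM scaling was computed on the RPKM themselves (trim 30% of ratios and 5% of levels), and log2(RPKM + 1) was fitted with limma 3.58.1 in R 4.3.3 (lmFit, eBayes with trend) over genes exceeding 1 RPKM in 4 or more of the libraries compared. Fold changes on this scale understate those of low genes. A gene was called at an adjusted p under 0.05 (Benjamini-Hochberg over all genes tested). Each comparison used its own 8 libraries and the interaction all 16. P-values of the fit without a block measure the spread between the preparations of a group. Those of the blocked fit measure the spread of the differences within preparations.

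The preparation as a replicate block was the paired alternative. The labels give the same animal numbers to libraries of 1 preparation, and residuals of same-numbered libraries correlated at 0.486 to 0.721 in Ad-Cre against Ad-LacZ, at 0.646 to 0.821 with inhibitor added to Ad-Cre cells, at 0.127 to 0.827 with it added to Ad-LacZ cells, and at 0.159 to 0.663 under inhibitor, so the numbers were taken to pair the libraries.

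Gene coordinates, exon lengths, exon overlap and 50-base matches came from GENCODE vM21 (GRCm38), and promoters from RefSeq. The other alternatives were RPKM as deposited, quantile normalization, a pseudocount of 0.1, no filter, no trend, all 16 libraries in 1 fit, removal of the trend with gene length (lowess span 0.5) and leaving out each preparation. Leaving out the Ad-Cre + JNKi library of M2 or F2, and the length trend together with the block, were chosen after the data were seen. On data simulated for Ad-Cre against Ad-LacZ (11616 genes), 94.5% of 182 changed genes were recovered and 6.5% of calls were false. These shares describe those data only. Recovery of differences of the size seen in the members was not tested, and neither was recovery by the blocked fit.

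The members and lists were chosen with earlier results of these data known. Named by rule are, per class, the highest level and the highest and lowest change in Ad-Cre, the complex II subunits, the complex IV isoforms, the 3 smallest p per inhibitor comparison and interaction, members called against the direction of most of their complex, and the called genes of the neighbouring lists. The mitochondrially encoded subunits are not analysed here, and 1 member that the rule names is not reported here. Atp5b, Uqcrc1, Atp5j2, Ndufs3, Ndufb7 and Ndufb4c were named after their values were seen. Uqcr11 was also named outside the rule.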

Additional observations from a re-analysis of the deposited data

Results flagged for a closer look

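Over 156 groups of 4 libraries (39 members named by rule, in 4 groups), 14 had 1 library whose gap to its nearest neighbour took up most of the group's range by Dixon's criterion. Chance gives about 1 such group in 20, and the groups share libraries, so these values are given without explanation.

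Library F1 accounted for 8 of the 14. In Ad-Cre it was highest for Cox6a1 (306.5 RPKM against 225 to 228 in the other 3 libraries), Sdhb (45.7 against 34.9 to 36.3), Uqcr10 (149 against 91.4 to 98.7) and the pseudogene Uqcrh-ps1 (4.93 against 1.65 to 2.02). In Ad-LacZ + JNKi it was highest for Atp5l (9.35 against 6.39 to 6.51) and Ndufa4 (132 against 111 to 114) and lowest for Ndufb3 (49.2 against 52.9 to 53.3) and Ndufv1 (19.6 against 29.6 to 31.7).

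Library F2 of Ad-LacZ was highest for Ndufa12 (20.4 RPKM against 6.75 to 8.45), Ndufaf2 (3.17 against 2.12 to 2.20) and Ndufs5-ps (179 against 102 to 113.5), 3 members that share 17.7% or more of their sequence or exon bases with another gene. Library M2 stood apart for Ndufa12 in Ad-Cre (6.82 against 7.83 to 7.92), and for 2 isoforms at the limit of detection, Cox7b2 in Ad-LacZ + JNKi (0.240 against 0) and Cox8b in Ad-Cre (0.124 against 0).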

How the results depend on the processing

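Among the alternative values of the counts and medians, 97 stayed within 1.5 times the count or within the spread between preparations (1 SD) of the median, and 28 moved further. For Ad-Cre against Ad-LacZ this spread, 0.219, exceeded the median of 0.15, so the fall to 0.04 without F1 counts as staying. For the inhibitor in Ad-LacZ it was 0.11, against a median of 0.04. A count of 0 that remained 0 also counts as staying, so the 97 does not measure how stable the results are. Among those of single named members, 343 kept their direction and call, 25 gained a call, 10 lost one and 17 changed sign. The cause of each shift was not tested.

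Against 2 members called in Ad-Cre against Ad-LacZ, 10 were called with RPKM as deposited, 6 with quantile normalization, 7 with the length trend removed, 0 without the filter and 0 to 1 without a preparation. Of all genes, 19.1% were called with RPKM as deposited, 18.1% with quantile normalization, 16.5% with the length trend removed and 7.44% without the filter. Leaving out a preparation gave 4.54% (F1), 4.21% (M1), 8.14% (M2) and 1.52% (F2) of all genes. Against 10 under inhibitor, 6 were called without the filter, 17 with all 16 libraries in 1 fit, and 0 to 39 when a preparation or a library was left out. For these settings under inhibitor the shares of all genes are not given here, so the counts cannot be set against a background. The replicate block, which pairs the libraries of a preparation, gave 22 calls for the virus, 28 for the virus under inhibitor and 20 for the inhibitor in Ad-Cre (0 without the block). With the length trend removed as well, these were 16, 16 and 7. Of all genes, 31.3% were then called for the virus and 5.05% for the inhibitor in Ad-Cre. For the virus under inhibitor, 1330 of 11598 genes were then called higher and 1208 lower. The block changed no count in the inhibitor comparison of Ad-LacZ or in the interaction.

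The median for Ad-Cre against Ad-LacZ, 0.15, was 0.0764 with quantile normalization, 0.0785 with the length trend removed, 0.04 without F1 and 0.16 to 0.21 without another preparation. The median for the inhibitor in Ad-Cre, 0.28, was 0.13 with RPKM as deposited, 0.18 with quantile normalization, 0.17 with the length trend removed and 0.26 to 0.44 when a preparation or library was left out. The median under inhibitor, 0.32, was 0.20 with RPKM as deposited, 0.23 with quantile normalization, 0.21 with the length trend removed and 0.29 to 0.50 when a preparation or library was left out. The interaction median, 0.24, was 0.10 with RPKM as deposited, 0.12 with quantile normalization and 0.17 to 0.35 when a preparation or library was left out.

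The members that changed sign in Ad-Cre against Ad-LacZ were not called. With RPKM as deposited they were Cox7a2 (0.0005) and Sdhd (-0.0058), with quantile normalization Cox7a2l (-0.0982) and Ndufa1 (-0.1368), with a pseudocount of 0.1 Sdhd (-0.072), and with the length trend removed Cox7a1 (-0.0512), Ndufa1 (-0.0485) and Sdhd (-0.0789). Without 1 preparation the values ran from -0.2184 to 0.102 for Atp5l, -0.0578 to 0.2195 for Cox7a1, -0.2092 to 0.0878 for Cox7a2, -0.0345 to 0.3103 for Ndufa1, -0.4821 to 0.0455 for Ndufa12, -0.2507 to 0.127 for Ndufs5-ps, -0.123 to 0.0025 for Sdha and -0.2295 to 0.173 for Sdhd. Depth limits isoforms under 1 RPKM, whose absence cannot be shown.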
